A study of Mus musculus with 12 samples.

Results

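Fetal-like regenerative genes are active in the fetal intestinal epithelium, are low in most cells of the adult crypt, and return after injury and in tumors. The 7 genes described here, *Ly6a*, *Ly6d*, *Clu*, *Anxa1*, *Anxa3*, *Il33* and *Ankrd1*, were picked by name, and each was found once among the 54532 genes of both expression tables. The study removed ieCtnnb1, an intestinal enhancer upstream of *Ctnnb1*, the gene of β-catenin, and used RNA-seq to ask which transcripts depend on this enhancer in normal crypts and in colon tumors. Small intestinal crypts came from adult mice, 3 wild-type libraries (labelled Wild type) and 3 libraries of mice without the enhancer (labelled ieCtnnb1KO, called *Ctnnb1*Δi.enh here). Colon tumors came from 5-month-old mice, 3 libraries labelled APCmin/+ and 3 labelled APCmin/+;ieCtnnb1KO, so every tumor mouse, controls included, carried the *Apc*Min allele, which truncates the APC protein and gives intestinal tumors. The mice had a C57BL/6 background and received no treatment according to the labels. The knockout mice lacked the enhancer in the germline, that is in stromal and immune cells as well as in the epithelium. Crypt libraries were made from isolated crypts and tumor libraries from pieces of whole tumor. The labels do not say whether each library is a separate mouse, and the study's legends give 3 mice per genotype for crypts and for tumors; p-values measure the spread between these libraries.

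As background, the intestinal epithelium that has lost its crypt base stem cells to radiation or infection passes through a transient state that resembles the fetal epithelium, in which the coactivators YAP and TAZ act with TEAD factors on DNA, and then rebuilds its crypts with Wnt signaling. *Ly6a*, which encodes the surface protein Sca-1, is used to sort cells in this state, and *Clu*, which encodes the secreted chaperone clusterin, marks rare revival stem cells. The state is not the only source of these transcripts: *Ly6a* is also expressed by endothelial cells and fibroblasts, *Il33* by endothelial and stromal cells, and *Anxa1* by myeloid cells.

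Values are FPKM, counts scaled for gene length and by a factor for each library, which allow a comparison between genes as well as between libraries of a table. Fragments recovered from the FPKM and the gene lengths amounted to between 14457896 and 16074777 per library in crypts and between 14648696 and 16156712 in tumors. The factor was not the library's total alone: it was between 0.934 and 1.05 times what scaling to the recovered total would give in crypts and between 0.979 and 1.03 times in tumors. *Ctnnb1* itself was checked first. In crypts its FPKM was 126 ± 7.3 (SD, n = 3) in controls and 104 ± 1.68 (n = 3) in knockout libraries, and in tumors it was 340.0 ± 36.0 in controls and 259 ± 17.4 without the enhancer. The groups did not overlap in either tissue, which fits the labels, although the limma adjusted p was 0.849 in crypts and 0.303 in tumors.

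Some libraries stood apart from others of the same group, and the cause was not tested. Wild-type crypt replicates 1 and 2 held transcripts of stomach epithelium: 13 stomach markers summed to 209 and 124 FPKM there, to 16.2 in replicate 3, while no knockout library was above 19.8; their most abundant gene was *Tff2*. Among tumors, replicate 3 of either genotype expressed *Xist*, at 114 and 61.4 FPKM, and the remaining tumor libraries and all crypt libraries were below 0.1, so both genotypes of tumors held 1 such library. None of the 7 genes is on the list of stomach markers. Values without both of these crypt controls, and ranges with each library left out in turn, are given in the last section.

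The 7 genes sat at very different heights in the crypts and in the tumors. In wild-type crypts the order was *Ly6d*, *Il33*, *Ly6a*, *Clu*, *Anxa3*, *Anxa1* and *Ankrd1*, from a mean of 7.38 FPKM for *Ly6d* to 0.675 for *Anxa1* and no fragment of *Ankrd1*. The ranges of *Ly6d* and *Il33* overlapped, as did those of *Il33* and *Ly6a* and of *Clu* and *Anxa3*; *Ly6a* lay above *Clu*, and *Anxa3* above *Anxa1*, in all 3 libraries. The same order held in *Ctnnb1*Δi.enh crypts, with the same neighbours overlapping. In *Apc*Min/+ tumors the order was *Clu*, *Ly6a*, *Anxa1*, *Ly6d*, *Anxa3*, *Il33* and *Ankrd1*, from 211 FPKM for *Clu* to 1.32 for *Ankrd1*. The ranges of *Clu* and *Ly6a* overlapped there, and so did those of *Ly6d* and *Anxa3*, whereas the other neighbours were apart. *Ctnnb1*Δi.enh;*Apc*Min/+ tumors differed in this order at the top only, where the mean of *Ly6a* was above that of *Clu* with overlapping ranges.

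By rank among all 54532 genes, the mean FPKM over the 6 libraries of a table put *Clu* at place 10725 in crypts and 140 in tumors. *Ly6a* stood at place 7250 in crypts and 160 in tumors, and *Anxa1* at 13705 and 248. *Il33* moved least, from place 6968 to 3997. Set side by side, the mean of the *Apc*Min/+ libraries was 206 times that of wild-type crypts for *Anxa1*, 101 times for *Clu*, 33.1 times for *Ly6a*, 22.6 times for *Anxa3*, 5.88 times for *Ly6d* and 2.72 times for *Il33*, and the median of this ratio over 13416 genes at or above 0.5 FPKM in both groups was 1.36. The tables were normalized separately, so these ratios were not tested, and the organ, the *Apc* allele and the presence of stroma cannot be told apart in them.

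**Figure D1:**
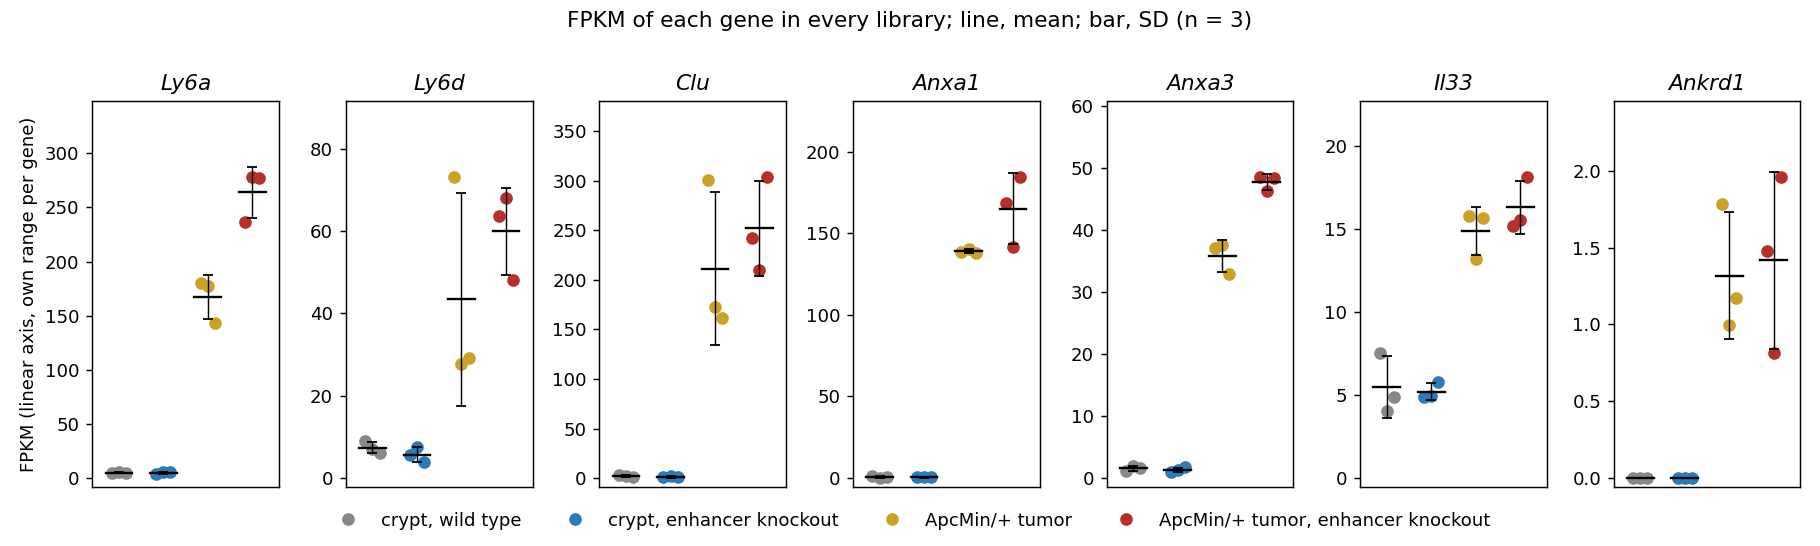
FPKM of the 7 genes in each of the 12 libraries on linear axes with a range of their own; points are libraries, lines are means and bars are SD (n = 3). *Ly6a* and *Anxa3* of the tumors lie higher without the enhancer in all 3 libraries, *Clu* and *Ly6d* have 1 high *Apc*Min/+ library, and the crypt groups overlap for every gene that was detected there.

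*Ly6a* and *Ly6d* encode small GPI-anchored surface proteins of the Ly6 family and lie in the same gene cluster on the minus strand of chromosome 15, at chr15:74994877-74998031 and chr15:74762056-74763620 (GRCm38). Wild-type crypts had 4.45, 5.92 and 4.76 FPKM of *Ly6a*, and *Ctnnb1*Δi.enh crypts had 3.67, 5.7 and 5.38. The lowest library of all 6 was a knockout and the highest a control, with the others between them, so the groups overlapped. The log2 difference on the FPKM + 0.5 scale, knockout minus control, was -0.05 with a standard error of 0.19 and a limma adjusted p of 0.987. Between 72 and 115 fragments lay behind each of these crypt values.

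In *Apc*Min/+ tumors *Ly6a* was at 180.0, 178 and 144 FPKM, and in *Ctnnb1*Δi.enh;*Apc*Min/+ tumors at 237, 278 and 277. Every library without the enhancer was above every control, and the gap between the groups, from 180.0 to 237, was wider than the spread within either of them. Mean levels were 167 ± 20.4 and 264 ± 23.6 FPKM (SD, n = 3), a ratio of 1.58. The log2 difference was 0.66 with a standard error of 0.134 and a 95% interval from 0.34 to 0.98. This was place 110 by p among the 16743 genes tested, and the limma adjusted p was 0.269, so *Ly6a* did not pass the threshold of 0.05; the exact two-sided permutation p was 0.1, the smallest that 3 against 3 libraries allow. In tissue of mixed cells, more cells that express *Ly6a* and more RNA per cell cannot be told apart, and the same holds for every gene below.

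Part of the *Ly6a* sequence is shared with relatives. Of 1311 stretches of 75 bases in its annotated transcripts, 83 (6.33%) were also found in transcripts of *Ly6c1* or *Ly6i*, so a small share of reads could have been assigned to either gene. *Ly6i* was low in tumors, with no library above 0.231 FPKM, and *Ly6c1* was far below *Ly6a*, at 12.9 ± 1.72 FPKM in controls and 18.0 ± 2.4 without the enhancer. The transcript of *Ly6d*, in contrast, shared none of its 670 stretches with another gene, and neither did those of *Clu*, *Anxa1*, *Il33* and *Ankrd1*.

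*Ly6d* was at 8.94, 7.03 and 6.17 FPKM in wild-type crypts and at 5.7, 7.54 and 3.83 in *Ctnnb1*Δi.enh crypts. *Ctnnb1*Δi.enh replicate 2 lay inside the control range and the others below it. The log2 difference was -0.38 (standard error 0.246, limma adjusted p 0.896). In tumors the control libraries were split: replicate 1 had 73.2 FPKM of *Ly6d*, and replicates 2 and 3 had 27.7 and 29.2. *Ctnnb1*Δi.enh;*Apc*Min/+ tumors had 63.6, 68.1 and 48.1, all above the lower pair of controls and all below replicate 1. With the 6 libraries the log2 difference was 0.60 with a 95% interval from -0.30 to 1.49 and a limma adjusted p of 0.476. Without control replicate 1 it was 1.05 with an adjusted p of 0.138, and over all alternatives the adjusted p of *Ly6d* in tumors ranged from 0.138 to 0.774.

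*Clu* lies on chromosome 14 (chr14:65968483-65981547, plus strand). Crypt levels were low and uneven, with 2.69, 2.09 and 1.47 FPKM in controls and 0.929, 2.38 and 0.87 in *Ctnnb1*Δi.enh libraries. *Ctnnb1*Δi.enh replicate 2 was again the library that overlapped with the controls, as it was for *Ly6d*. The log2 difference was -0.51 with a standard error of 0.332 and a limma adjusted p of 0.896. Leaving out that replicate, *Clu* was at -0.86 and *Ly6d* at -0.59, both with groups that did not overlap (as for 9.01% of all genes tested in that direction and setting) and with adjusted p of 0.864 and 1.0. Leaving out both control libraries with stomach transcripts, an alternative chosen after seeing the data that leaves 1 control, they were at -0.14 and -0.15.

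In tumors *Clu* was the most abundant of the 7 genes in controls, with 301, 172 and 161 FPKM in *Apc*Min/+ and 242, 210 and 304 in *Ctnnb1*Δi.enh;*Apc*Min/+ libraries. Control replicate 1, which was also the high library for *Ly6d*, stood beside the highest knockout library, and the groups overlapped. Mean levels were 211 ± 77.6 and 252 ± 47.8 FPKM (SD, n = 3). The log2 difference of 0.30 had a 95% interval from -0.34 to 0.93 and a limma adjusted p of 0.614. Without control replicate 1 it was 0.58 (adjusted p 0.23, within a range of 0.23 to 0.902 over the alternatives), and all 3 knockout libraries were then above both remaining controls.

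*Anxa1* and *Anxa3* encode annexins, proteins that bind phospholipids of membranes in the presence of calcium; annexin A1 is also released and acts on formyl peptide receptors to limit inflammation. *Anxa1* is at chr19:20373428-20390944 on the minus strand and *Anxa3* at chr5:96793339-96845966 on the plus strand. Crypts held little *Anxa1*, with 1.09, 0.251 and 0.685 FPKM in controls and 0.471, 0.732 and 0.355 in *Ctnnb1*Δi.enh libraries, that is between 10 and 44 fragments. The groups overlapped, and at this depth the log2 difference of -0.16 had a 95% interval from -0.93 to 0.62. *Anxa3* in crypts was at 1.13, 1.94 and 1.7 FPKM in controls and at 1.01, 1.28 and 1.72 without the enhancer. These groups overlapped as well, with a log2 difference of -0.19 and a limma adjusted p of 0.932.

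*Anxa1* in the *Apc*Min/+ tumors was at 139, 141 and 138 FPKM, with an SD of 1.32. Without the enhancer it was at 169, 142 and 185. The lowest knockout library was barely above the highest control, at 141.6 against 140.6 FPKM, so that the groups did not overlap but touched. The log2 difference was 0.24 (95% interval -0.05 to 0.52, limma adjusted p 0.402), and under quantile normalization it was 0.02 and the groups overlapped.

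*Anxa3* in tumors was at 37.2, 37.5 and 32.9 FPKM in controls and at 48.7, 46.3 and 48.4 in knockout libraries. The groups were apart by more than the range of either, and the knockout libraries lay close together, with an SD of 1.29. Mean levels were 35.9 ± 2.56 and 47.8 ± 1.29 FPKM (SD, n = 3), a ratio of 1.33. The log2 difference of 0.41 had a standard error of 0.0844 and a 95% interval from 0.21 to 0.61. It stood at place 122 by p among the genes tested, with a limma adjusted p of 0.269 and an exact permutation p of 0.1. An unspliced gene model on the same strand, *Gm42603*, overlaps *Anxa3* over 2146 bases and shares 41 of 3677 stretches of 75 bases with it, and its mean was 0.0388 FPKM in tumors and 0 in crypts.

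*Il33* encodes an alarmin of the interleukin-1 family that is stored in the nucleus and released when cells are damaged. Wild-type crypts had 7.54, 4.01 and 4.88 FPKM of *Il33* and *Ctnnb1*Δi.enh crypts had 4.85, 4.94 and 5.77. The knockout libraries lay inside the range of the controls, and the log2 difference was -0.03 with a 95% interval from -0.55 to 0.49. Its sign turned in 3 alternatives: it was 0.20 without wild-type replicate 1, 0.01 without *Ctnnb1*Δi.enh replicate 1 and 0.08 without both controls that held stomach transcripts. In tumors *Il33* was at 15.8, 13.2 and 15.6 FPKM in controls and at 15.2, 15.5 and 18.1 without the enhancer. Those groups overlapped, with a log2 difference of 0.13, a 95% interval from -0.14 to 0.39 and a limma adjusted p of 0.606.

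*Ankrd1*, a long-known target of YAP and TEAD factors, encodes an ankyrin repeat protein of the nucleus and of the muscle sarcomere. No fragment was assigned to it in any of the 6 crypt libraries, where the limit that a count of 0 allows, taken as 3 fragments, was between 0.101 and 0.121 FPKM, a limit for counting error only. It was therefore not tested in crypts. Tumor levels were 1.78, 0.996 and 1.17 FPKM in controls and 1.48, 0.812 and 1.96 in knockout libraries, from between 23 and 54 fragments. The knockout group spanned the whole control group, and the log2 difference of 0.05 had a 95% interval from -0.63 to 0.73.

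*Anxa1*, *Il33* and *Ankrd1* are 3 of the 7 genes and all lie on chromosome 19, and the RefSeq promoter table (GRCm38.p6) held 4 windows for them, 2 of these for *Il33*, and none for the others. The 250 bases before each start site are shown because YAP and TEAD factors are the background most often given for this gene state. Capitals mark CATTCC, the core letters bound by TEAD factors, read on both strands (as GGAATG on the other).

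Anxa1 (chr19:20390672-20390921, minus strand): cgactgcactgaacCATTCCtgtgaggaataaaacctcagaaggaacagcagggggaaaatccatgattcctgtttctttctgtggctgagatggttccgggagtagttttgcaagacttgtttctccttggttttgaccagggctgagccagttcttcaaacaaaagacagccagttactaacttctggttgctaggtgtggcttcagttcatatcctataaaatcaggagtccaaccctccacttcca
Il33, upstream start (chr19:29924863-29925112, plus strand): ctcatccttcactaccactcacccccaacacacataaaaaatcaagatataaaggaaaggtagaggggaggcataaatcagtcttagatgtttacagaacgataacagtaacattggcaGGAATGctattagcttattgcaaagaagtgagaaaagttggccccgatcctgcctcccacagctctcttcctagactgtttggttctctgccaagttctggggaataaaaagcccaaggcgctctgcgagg
Il33, downstream start (chr19:29945540-29945789, plus strand): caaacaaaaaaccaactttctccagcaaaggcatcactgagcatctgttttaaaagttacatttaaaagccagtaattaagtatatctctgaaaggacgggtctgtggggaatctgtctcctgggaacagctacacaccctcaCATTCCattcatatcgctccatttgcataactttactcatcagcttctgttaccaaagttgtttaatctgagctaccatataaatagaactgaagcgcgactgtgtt
Ankrd1 (chr19:36119845-36120094, minus strand): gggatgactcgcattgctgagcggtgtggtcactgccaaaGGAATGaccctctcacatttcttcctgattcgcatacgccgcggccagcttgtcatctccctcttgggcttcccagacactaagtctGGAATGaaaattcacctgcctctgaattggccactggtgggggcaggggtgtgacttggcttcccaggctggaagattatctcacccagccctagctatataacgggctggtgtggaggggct

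The letters occurred once in the window of *Anxa1*, once in each window of *Il33*, and at 2 places in that of *Ankrd1*, from -210 and from -123 relative to the start site. Of all 32851 promoter windows of this length, 12.6% held them. The AP-1 letters TGANTCA (6.75% of all windows) and the TCF/LEF letters CTTTGAT (3.21%) and CTTTGAA (4.46%), also read on both strands, were in none of the 4 windows. A match of 6 letters is a description of the sequence, and no binding was measured. In tumors the log2 difference of these members was 0.24 for *Anxa1*, 0.13 for *Il33* and 0.05 for *Ankrd1*, each with an interval that includes 0.

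Counted over the members, no gene passed an adjusted p of 0.05 in crypts or in tumors, by limma on log2 FPKM or by voom in limma on the recovered fragments. The same was true of all genes tested, where 0 of 14176 (0%) were called in crypts and 0 of 16743 (0%) in tumors. At an unadjusted p under 0.05, 0 of 6 members tested were found in crypts, against 829 genes (5.85%) of the background. In tumors *Ly6a* and *Anxa3* were found, 2 of 7, against 2421 genes (14.5%), and voom found 2 as well. Members whose groups did not overlap numbered 0 of 6 in crypts, where 6.79% of all genes tested were apart with the knockout higher and 5.15% with the knockout lower. In tumors they were *Ly6a*, *Anxa1* and *Anxa3*, 3 of 7 and all higher without the enhancer, against 11.4% of all genes tested in that direction and 10.6% in the other. *Anxa1* overlapped after quantile normalization and after each of the 2 rescalings to a total, which left 2 of 7, against 9.33%, 8.63% and 8.59% of all genes tested in that direction in these settings. Without *Apc*Min/+ replicate 1, the high library of *Ly6d* and *Clu*, those numbers were 4 of 7 at an unadjusted p under 0.05, against 16.5% of all genes tested, and 5 of 7 with groups that did not overlap, all higher, against 19.7% in that direction.

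All 6 members tested in crypts had a lower mean without the enhancer, and all 7 in tumors a higher mean. The sign was not stable for every member: *Ly6a* and *Il33* turned above 0 in crypts in 3 alternatives each, and *Ankrd1* turned below 0 in tumors in 2. Their median log2 difference was -0.17 in crypts, where that of all genes tested was 0.0144, and 0.30 in tumors, where it was 0.00751. Whether the effect of the deletion on any member differs between crypts and tumors was not tested, and in crypts every member's groups overlapped. All genes tested were also split by level. In crypts the 6944 genes tested with a mean below 5 FPKM, the range of *Ly6a*, *Clu*, *Anxa1* and *Anxa3*, had a median of -0.05 with 41.3% higher, and the 6276 genes from 5 to 50 FPKM, the range of *Ly6d* and *Il33*, had a median of 0.05 with 62.2% higher. Quantile normalization gave the members a crypt median of -0.10, with *Ly6d* at -0.39 and *Clu* at -0.44. In tumors, among the 1039 genes tested with a mean of at least 50 FPKM, the range that holds *Ly6a*, *Clu*, *Anxa1* and *Ly6d*, the median was 0.15 and 74.9% were higher without the enhancer, and among the 8002 genes from 5 to 50 FPKM the median was 0.03 with 54.9% higher; among the 7702 genes below 5 FPKM, the range of *Ankrd1*, it was -0.04 with 44.3% higher. Quantile normalization, which removes this shift, lowered the members' tumor median to 0.09 and left all 7 above 0, with *Ly6a* at 0.45 and *Anxa3* at 0.29.

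**Figure D2:**
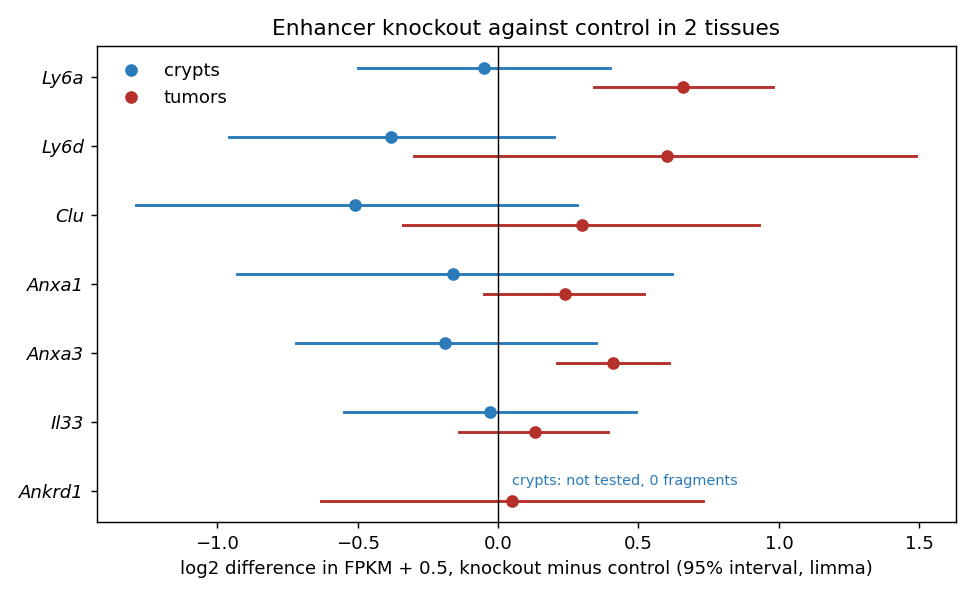
Log2 difference in FPKM + 0.5 between knockout and control for each gene in crypts and in tumors; points are limma estimates and lines are 95% intervals from 3 libraries per group. The intervals of *Ly6a* (0.34 to 0.98) and *Anxa3* (0.21 to 0.61) in tumors lie above 0, those of the other members include 0, and *Ankrd1* had no fragment in crypts.

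Pairs of members were also compared across the libraries of a tissue. Over the 6 tumor libraries, which hold both genotypes, *Ly6a* and *Anxa3* had a Pearson correlation of 0.96 on the log2 scale, *Anxa1* and *Anxa3* of 0.77 and *Ly6d* and *Clu* of 0.74, whereas *Ly6d* and *Anxa1* were at 0.21. Over the 6 crypt libraries *Ly6d* and *Clu* reached 0.91, *Ly6a* and *Anxa3* 0.74, and *Anxa1* and *Anxa3* -0.59. These are descriptions of 6 libraries each. In tumors they include the difference between the genotypes: within the knockout group *Ly6a* was highest in replicate 2, where *Anxa3* was lowest.

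Genes with the most similar pattern were sought over all 12 libraries after subtraction of each table's mean, among 11562 genes with a mean of at least 1 FPKM in both tables. For *Ly6a* these were *Uap1* (r = 0.96), *Slc35a2* (0.921) and *Tmed2* (0.916), and for *Anxa3* they were *Gas2l1* (0.938), *Arf6* (0.934) and *Hgfac* (0.921). *Ly6d* was followed most closely by *Igfbp4* (0.884), *AI467606* (0.877) and *Gm13092* (0.868), and *Clu* by *Eef1e1* (0.911), *Surf6* (0.872) and *Hk2* (0.869). For *Il33* they were *Swsap1* (0.892), *Arf2* (0.885) and *Hsf1* (0.875). *Anxa1*, compared with 11563 genes since its own crypt mean was below 1, was closest to *Abt1* (0.93), *Zbtb21* (0.918) and *Wdr46* (0.904). No member was among the 3 closest genes of another member, but *Anxa1* and *Ankrd1* were below the filter and could not be. With 12 points and so many genes, high values can arise by chance. How often they do was not tested, and they are given as a description.

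Other genes of the fetal-like state that are not members had medians on the same side of 0 as those of the members. Of these genes, 8 are also on other lists described here, *Krt19* and *Anxa2* among them, so those lists are not separate from this one. Of 20 such genes, 15 were tested in crypts, 12 of them with a lower mean without the enhancer, with a median log2 difference of -0.27. All 20 were tested in tumors, 15 with a higher mean, with a median of 0.31 beside 0.30 for the members. Both tumor medians were lower under quantile normalization and moved with 1 library left out, as given in the last section. None passed the adjusted threshold in limma; 1 of 15 had an unadjusted p under 0.05 in crypts and 5 of 20 in tumors, 4 of these higher, against 5.85% and 14.5% of all genes tested. *Krt19*, a keratin of simple epithelia, was the most abundant, at 934 ± 132 FPKM in control and 1200 ± 88.2 in knockout tumors (log2 difference 0.37) and at 0.36 in crypts. *Ly6c1*, a relative of *Ly6a*, had 14.2, 13.5 and 10.9 FPKM in control and 19.4, 15.2 and 19.3 in knockout tumors (0.47), whereas *Cxadr*, a receptor of tight junctions, was lower (-0.32). *Ecm1*, an extracellular matrix protein, had the smallest p in crypts, with a log2 difference of -0.50.

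*Ankrd1* is itself counted among the targets of YAP, TAZ and TEAD factors, and 25 further targets were listed. In crypts, where *Ankrd1* had no fragment, 14 of the 15 tested had a log2 difference below 0, and the median was -0.31. *Wwc1*, a regulator of the Hippo pathway and the most abundant, was at -0.33, and *Myof*, a membrane repair protein with the smallest p, was at -0.53 (1.6, 2.41 and 1.98 FPKM in control and 1.1, 1.16 and 1.38 in knockout crypts; limma adjusted p 0.8). In tumors 20 of 25 had a log2 difference above 0 and the median was 0.18, while *Ankrd1* was at 0.05. *Ctgf*, a secreted matricellular protein, was at 22.6, 26.2 and 19.7 FPKM in controls and at 43.8, 45.4 and 32.4 without the enhancer, a log2 difference of 0.81 (limma adjusted p 0.269). *Axl*, a receptor tyrosine kinase, was at 0.41, and *F3*, tissue factor, the most abundant target at a mean of 87.5 FPKM, at 0.17 with overlapping groups. The median of the targets thus had the sign of the members' median in each tissue. Some cell type marker lists had these signs too, such as fibroblast (-0.45 in crypts, 0.57 in tumors) and Paneth cell markers (-0.56 and 0.47). Others did not, such as tuft cell markers (-0.06 and -0.12). In tumors 5 of 25 targets had a log2 difference below 0, and 0 genes passed the adjusted threshold. At an unadjusted limma p under 0.05 there was 1 of 15 in crypts, against 5.85% of all genes tested, and there were 4 of 25 in tumors, against 14.5%.

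The Hippo kinases, scaffolds, coactivators and TEAD factors, which act upstream of those targets, had medians close to 0. Of 16 tested in crypts 10 were higher, with a median of 0.05, and of 20 in tumors 14 were lower, with a median of -0.03. *Mob1a*, a kinase adaptor and the most abundant, was at 0.09 in crypts and at 42.2 ± 3.47 against 42.1 ± 1.93 FPKM in tumors. *Amot*, an angiomotin that binds YAP, had a mean of 21.2 FPKM in control and 14.7 in knockout tumors with groups that did not overlap (-0.51, limma adjusted p 0.269), and *Vgll4*, a repressor of TEAD factors, was at -0.29. *Tead1* (-0.37) and *Tead4* (0.36), named after the values were seen, were also apart, in opposite directions. At an unadjusted limma p under 0.05 there were 0 of 16 in crypts, against 5.85% of all genes tested. In tumors there were 4 of 20, 3 lower and 1 higher, against 14.5%. Under the alternatives *Ankrd1* itself turned below 0 in tumors in 2 cases, at -0.08 without *Apc*Min/+ replicate 2 and -0.15 without *Ctnnb1*Δi.enh;*Apc*Min/+ replicate 3.

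Within the annexin family, *Anxa1* and *Anxa3* were compared with 10 further members. *Anxa4* was the most abundant in crypts (log2 difference 0.21) and *Anxa2* in tumors, with 252 ± 12.9 FPKM in control and 324 ± 43.8 in knockout libraries (0.35, groups apart). In crypts 5 of 8 tested annexins were higher, with a median of 0.02 and with *Anxa13* at 0.33, while *Anxa1* and *Anxa3* were lower. In tumors 8 of 9 were higher, with a median of 0.11, and *Anxa8* was at 0.39, close to *Anxa3* at 0.41. Of the receptors of annexin A1, *Fpr1*, found on neutrophils, had 2.15, 3.3 and 2.88 FPKM in control and 1.5, 1.04 and 1.6 in knockout tumors (-0.80, limma adjusted p 0.269), opposite in sign to *Anxa1*. *S100a10*, the partner of annexin A2, was at 0.57 in tumors and at -0.03 in crypts, where it was the most abundant of this list, and *S100a11*, which binds annexin A1, was the most abundant in tumors at 0.14. Over these receptors and partners, 1 of 4 tested was higher in crypts (median -0.02) and 4 of 6 in tumors (median 0.19), and *Fpr3*, *Fpr-rs3* and *Fpr-rs4* had no fragment in any library.

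The neighbours of *Ly6a* and *Ly6d* in the Ly6 cluster on chromosome 15 were mostly off in crypts. Only 2 of 17 passed the filter there (median 0.02), *Ly6e* with 50.6 ± 11.4 FPKM in control and 56.5 ± 2.22 in knockout libraries being the most abundant, and 7 had no fragment. In tumors 10 were tested, 7 of them higher, with a median of 0.40 beside 0.66 for *Ly6a* and 0.60 for *Ly6d*. *9030619P08Rik* was at 2.97, 3.05 and 4.15 FPKM in controls and at 5.65, 10.5 and 6.86 without the enhancer (log2 difference 1.04), and *Ly6g*, a surface protein of neutrophils, at 27.3, 29.7 and 28.6 against 46.1, 36.5 and 63.4 (0.73). Both had groups that did not overlap, as *Ly6a* had, and limma adjusted p of 0.269 and 0.27. *Ly6e*, the most abundant of the cluster in tumors as well, was at -0.09. *Psca* (-0.18) and *I830127L07Rik* (-0.76), named after the values were seen, were the others with a lower mean.

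*Il33* was also set beside a list of 16 genes of its receptor, its signaling and type 2 responses. The list is broader than the receptor and its downstream genes, since *Il25*, *Tslp*, *Il17rb*, *Pou2f3* and *Il1rapl1* are on it too. *Il1rl1*, which encodes the receptor ST2, was the most abundant of these in tumors, with 20.4, 27.9 and 29.6 FPKM in control and 30.3, 18.6 and 55.0 in knockout libraries, and its groups overlapped as those of *Il33* did. *Irak1*, a kinase downstream of the receptor, was the most abundant in crypts at -0.23. Of 8 genes tested in crypts 2 were higher (median -0.09), and of 10 in tumors 6 were higher (median 0.09), none with an unadjusted p under 0.05. *Il25* had no fragment in tumors, and *Il1rapl1* and *Il5* had none in crypts.

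Markers of the homeostatic stem cell, which in background recede as the fetal-like genes return, had medians below 0 in both tissues, at -0.12 in crypts (9 of 14 lower) and -0.09 in tumors (10 of 13 lower). Neither sign was stable. The crypt median turned above 0 without both controls that held stomach transcripts, and the tumor median did so with 1 library left out. *Rnf43*, a Wnt feedback inhibitor, was at 70.8, 74.1 and 74.5 FPKM in control and at 59.1, 55.1 and 59.5 in knockout tumors (-0.33), and *Axin2*, likewise a Wnt feedback gene and the most abundant in tumors, was at -0.32 there and -0.36 in crypts. *Olfm4*, the most abundant in crypts, was at 0.18. In tumors *Axin2* and *Rnf43* were thus lower in every library without the enhancer while *Ly6a* and *Anxa3* were higher in every such library. This did not hold for the stem cell markers as a whole. *Lgr5* (-0.50), *Smoc2* (-0.09) and *Ascl2* (-0.03), named after the values were seen, had overlapping groups in tumors, and *Olfm4* was below the filter there. Of the 13 markers, 3 had groups that did not overlap and were lower, against 10.6% of all genes tested. In the other direction there was 1, *Sox9* (0.13), named after the values were seen, against 11.4%. Interferon-stimulated genes, to which *Ly6a* also belongs by its known induction, had medians of -0.10 in crypts (17 of 25 lower) and -0.01 in tumors (11 of 25 higher), while *Ly6a* was at -0.05 and 0.66. The tumor median hides a wide spread, from *Cxcl9* at -0.78 to *Isg15* at 0.76, both named after the values were seen. In tumors 0 of 25 had an unadjusted limma p under 0.05. *Irf1* was the most abundant in crypts (-0.10) and *Bst2* in tumors (0.49), and *Gbp3* (-0.46) and *Cxcl9* (-0.55) had the smallest p in crypts. Immediate early and heat shock genes had medians of -0.16 in crypts (13 of 18 lower) and 0.28 in tumors (17 of 19 higher), close to those of the members. The crypt median turned above 0 with 1 library left out. At an unadjusted limma p under 0.05 there was 1 of 18 in crypts, against 5.85% of all genes tested. In tumors there were 7 of 19, all higher, against 14.5%. *Ier2* was the most abundant in crypts (0.14), where *Dusp1* had the smallest p (-0.70), and *Jun* in tumors (-0.07). *Jund* was at 62.0, 65.1 and 62.1 FPKM in control and at 84.6, 82.5 and 95.9 in knockout tumors (0.47), and *Hspa1b*, a chaperone induced by heat and handling, at 7.58, 5.66 and 5.51 against 10.2, 18.4 and 42.9 (1.62).

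**Figure D3:**
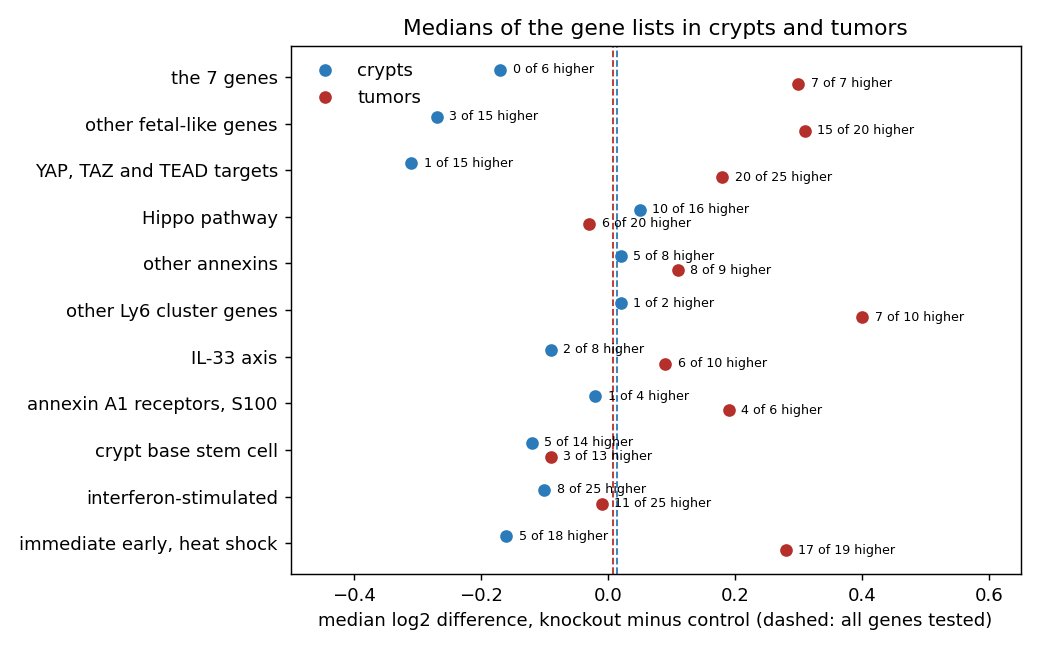
Median log2 difference between knockout and control for the 7 genes and for 10 related lists in crypts and tumors, with the number of genes above 0 out of those tested. Dashed lines mark the medians of all genes tested (0.0144 and 0.00751). The 7 genes are at -0.17 in crypts and 0.30 in tumors. The other fetal-like genes, the YAP, TAZ and TEAD targets and the immediate early genes lie on the same sides. So do the IL-33 genes (-0.09 and 0.09) and the annexin A1 receptors and partners (-0.02 and 0.19). Several cell type marker lists, not drawn, share these sides. Among them are fibroblast (-0.45 and 0.57), goblet (-0.27 and 1.03), Paneth (-0.56 and 0.47) and B and plasma cell markers (-0.29 and 0.45). Others do not, such as stomach (-1.84 and -0.17) and tuft cell markers (-0.06 and -0.12).

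Markers of fibroblasts and endothelial cells, in which *Ly6a* and *Il33* are also known to be expressed, mostly had higher means in tumors without the enhancer, and none passed the adjusted threshold. Of 14 fibroblast markers, all 14 were higher without the enhancer, and they summed to 610.0, 411 and 394 FPKM in control and 633, 795 and 688 in knockout libraries. *Sparc*, the most abundant, was at 135, 95.7 and 83.7 against 150.0, 161 and 175 FPKM, and *Col6a1* was at 0.57. Control replicate 1, the high library of *Clu* and *Ly6d*, was also the control with the most fibroblast transcripts. Of 13 endothelial markers 11 were higher, and they summed to no more than 115 FPKM in any control and to at least 122 in each knockout library. *Plvap* was the most abundant (0.54) and made up 30.8% of the sum, and *Robo4* (0.54) and *Pecam1* (0.47) had the smallest p. The rise did not hold for every endothelial marker. *Cdh5* (0.04), *Vwf* (0.05), *Tek* (0.10), *Kdr* (-0.09) and *Cldn5* (-0.13), named after the values were seen, had overlapping groups.

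Most epithelial markers were higher as well. All 12 markers of the intestinal epithelium as a whole had higher means without the enhancer and summed to 5190, 5260 and 4580 FPKM in control and 6210, 6130 and 6410 in knockout tumors. *Krt8* was the most abundant (0.35), and *Cdx1* (0.60) and *Tspan8* (0.66) had the smallest p. Goblet cell markers, 9 of 9 higher, summed to 1420, 1430 and 1470 against 2720, 3260 and 2870 FPKM, led by *Spink4*, at 579 and 1150 FPKM on average, with *Zg16* (0.99) and *Agr2* (1.03). Colonocyte markers, 10 of 10 higher, summed to 247, 217 and 229 against 330.0, 583 and 506 FPKM, led by *Muc3* (1.09), with *Saa1* (1.11). Enterocyte markers, 3 of 5 tested higher, summed to 225, 172 and 150.0 against 256, 302 and 255 FPKM, led by *Vil1* (0.49), which made up 49.3% of the sum and is also in the epithelial list, with *Krt20* at 0.96 and *Anpep*, named after the values were seen, at -0.49. The part of any of these cell types in the levels of *Ly6a*, *Anxa3* or the other members was not tested.

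The sums of most further marker lists overlapped between the tumor groups. The macrophage and monocyte markers summed to between 479 and 704 FPKM in control and between 554 and 863 in knockout tumors, led by *Lyz2* (-0.01), with *C1qa* (0.72) and *C1qc* (0.56). Neutrophil markers summed to between 334 and 594 against between 241 and 366, led by *S100a9* (-1.01), with *S100a8* at -0.98 and *Ly6g*, which had the smallest p, at 0.73, and 3 of the 10 were higher. The mesothelial sum was apart through *Krt19*, which made up 98.9% of it, and the sum of enteric glia and neurons was apart at 11.1, 8.85 and 7.1 against 11.5, 12.3 and 12.3 FPKM, led by *Ret* (0.69). The sum of tuft cell markers was lower, at 324, 371 and 339 against 316, 320.0 and 297 FPKM, of which *Cd24a* (-0.10, groups overlapping) made up 81.1%; no tuft cell marker had groups that did not overlap, and *Il25* was at 0. The sums of muscle (led by *Acta2*, 0.32), T cell (*Trac*, -0.12), B and plasma cell (*Jchain*, 0.36), mast cell (*Mcpt1*, -0.38; *Hdc* -1.17), squamous (*Sfn*, 0.59; *Krt4* -0.81), stomach (*Ctse*, 0.17; *Atp4a* -0.66; *Muc6* -1.22), enteroendocrine (*Reg4*, 0.59) and Paneth cell markers (*Lyz1*, 0.38; *Nupr1* 0.57) overlapped between the tumor groups.

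**Figure D4:**
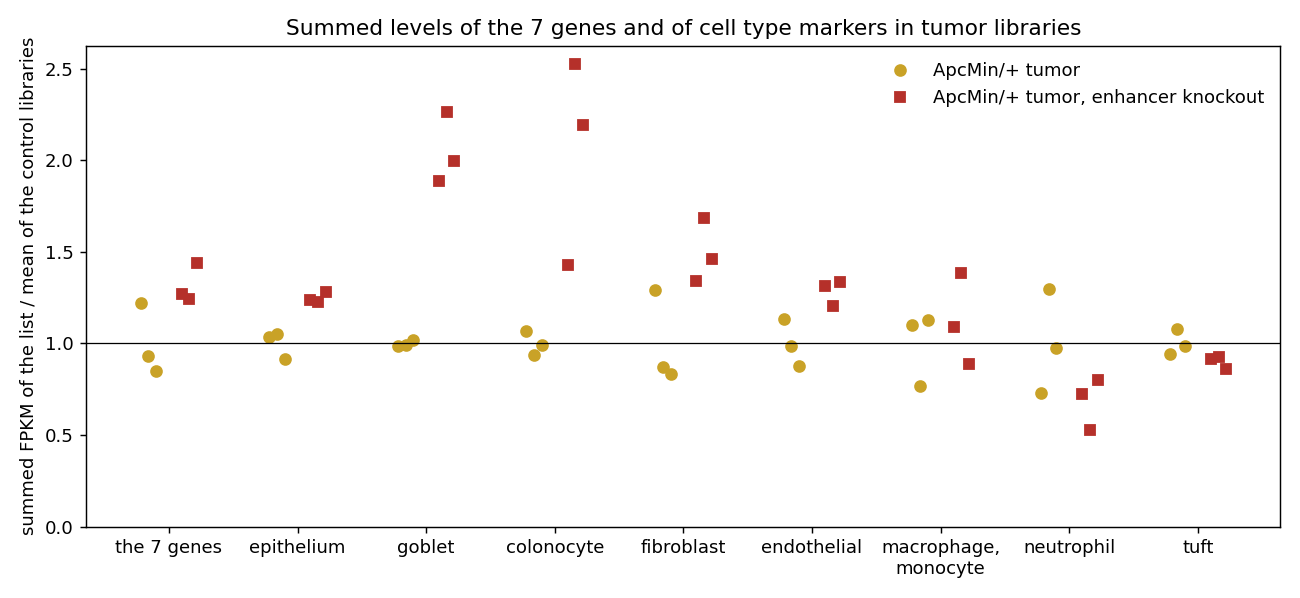
Summed FPKM of the 7 genes and of 8 lists of cell type markers in each tumor library, divided by the mean of the 3 *Apc*Min/+ libraries; circles are *Apc*Min/+ and squares *Ctnnb1*Δi.enh;*Apc*Min/+ libraries. The sum of the 7 genes was 747, 570 and 522 FPKM in control and 777, 761 and 883 in knockout libraries, and the epithelial, goblet, colonocyte, fibroblast and endothelial sums also lie higher in every knockout library.

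In crypts the sum of the 7 genes overlapped between the groups, at 25.8, 21.2 and 19.7 FPKM in controls and 16.6, 22.6 and 17.9 in knockout libraries, and so did the sum of every marker list. Endothelial markers summed to at most 3.71 FPKM (*Esam* the most abundant) and neutrophil markers to at most 1.83 (*Mmp9*), while the sum of the epithelial list, led by *Krt8*, was between 5390 and 7100. T cell markers, 9 of 12 lower, led by *Gzmb* (-0.52) and with *Cd3d* at 0.44, summed to between 114 and 176 FPKM, and *Ly6a* is also expressed by T cells. Fibroblast markers, 5 of 6 tested lower with a median of -0.45, summed to between 25.7 and 43.1 FPKM, of which *Fbln1* (0.45) made up 76.0%, with *Col3a1* at -0.54. Myeloid markers, 6 of 8 tested lower with a median of -0.44 (*Lyz2* the most abundant, -0.36), summed to between 16.1 and 39.1 FPKM, and B and plasma cell markers (*Jchain*, -0.45; *Cd22*, -0.50) to between 33.6 and 45.5. Stomach markers were the list with the widest gap, 7 of 7 tested being lower without the enhancer, with *Tff2* at -4.27, *Pgc* at -1.84 and *Ctse* at -1.01, with the high values in wild-type replicates 1 and 2 named above. *Clu*, *Ly6d*, *Il33* and *Anxa1*, 4 of the 6 members detected, were highest in wild-type replicate 1, the library with the most stomach transcripts. *Ly6a* (4.45 FPKM) and *Anxa3* (1.13) were lowest among the controls there. Wild-type replicate 2, which also held stomach transcripts, had the lowest *Il33* (4.01) and *Anxa1* (0.251) of all 6 libraries. The part of stomach transcripts in the levels of the members was not tested. Paneth cell markers, 10 of 10 lower, were led by *Defa24* (-0.69), with *Mmp7* (-0.72) and *Pla2g2a* (-0.47), and summed to between 26400 and 70600 FPKM in control and between 25800 and 28700 in knockout libraries. Of the remaining lists, the most abundant genes were *Mylk* for muscle (0.20), *Mcpt1* for mast cells (0.62), *Sfn* for squamous epithelium (0.41), *Ret* for glia and neurons (-0.38), *Krt19* for mesothelium (0.36, with *Lrrn4* at -0.84), *Reg4* for enteroendocrine cells (-0.27, with *Scg2* at -0.56 and *Chgb* at -0.47), *Cd24a* for tuft cells (-0.20), *Tff3* for goblet cells (-0.25), *Fabp2* for enterocytes (0.53) and *Muc3* for colonocytes (-0.07, with *Car4* at 0.92 and *Slc37a2* at 0.96). None of these passed the adjusted threshold.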

How the data were processed

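Crypt cells and tumor tissue were sequenced as paired-end reads, for which the methods name Hisat2 as aligner and featureCounts for counting; the submitters' processing notes also name cutadapt, Cufflinks 2.2.1 and mm10. The authors deposited FPKM per gene and library, unpooled, in a separate table for each tissue. Whether counting used the strand is not given in the sources used here. Fragments behind each value were recovered as whole steps of FPKM times length, which held (tolerance 0.1) for at least 99.995% of non-zero values in every library; 0 value columns were left unmapped. Each tissue was tested alone on a log2(FPKM + 0.5) scale, using limma 3.58.1 (R version 4.3.3), a variance trend and no covariate, for genes whose FPKM averaged 0.5 or more (14176 genes in crypts, 16743 in tumors), with Benjamini-Hochberg adjustment over all of them and a threshold of 0.05; a fold change on this scale understates the change of low genes. The procedure was tested on simulated data. Members also had a two-sided permutation p over all splits (exact). Lists were described by medians and by counts of genes whose log2 difference was above 0 (higher) or below 0 (lower). Named were the 7 genes, *Ctnnb1*, the most abundant gene of each list, up to 2 genes per list with the smallest unadjusted p under 0.05, and the 3 genes most similar to each member. Members and lists were chosen with earlier results of these data known. Alternatives were other pseudocounts, filters and scalings, voom on the recovered fragments, robust or untrended variance, the replicate number as a block, *Xist*-expressing tumor libraries as a covariate, each library left out in turn, and, chosen after seeing the data, both crypt controls with stomach transcripts left out. Promoter windows came from RefSeq (GRCm38.p6), transcripts from GENCODE M21, and figures from Python 3.11.15 with matplotlib 3.10.9.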

Additional observations from a re-analysis of the deposited data

How the results depend on the processing

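How the results depend on the processing. With 3 libraries per group, differences of less than the spread between libraries cannot be resolved, and tissue of mixed cells does not show which cells differ. No member had a limma adjusted p under 0.05 in any setting. Other pseudocounts, filters, scalings and variance settings, voom, and the *Xist* covariate in tumors turned no member's direction. Median-of-ratios scaling left every value as it was, since the deposited FPKM already carry such a scaling, so it says nothing on stability. Over all genes tested, 0 were called in either tissue, except 3 in crypts without wild-type replicate 3 (0 to 3 with 1 library left out) and 1 in tumors without a variance trend. *Anxa1* was below a filter of mean FPKM 1 in crypts, and below that of 0.5 without wild-type replicate 1, so it has no value there. The causes of the differences below were not tested.

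With the replicate number as a block (replicate block), 0 genes were called in crypts and 0 in tumors, 732 and 1882 had an unadjusted p under 0.05, and the lowest adjusted p of a member was 0.964 and 0.427. Same-numbered libraries correlated at -0.047, -0.122 and 0.037 in crypts and 0.054, -0.09 and 0.053 in tumors, and not every library matched its own number best, so the numbers do not pair the libraries.

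With 1 library left out, the log2 difference in crypts ranged from -0.15 to 0.13 for *Ly6a* (0.06 without wild-type replicate 2, 0.13 without knockout replicate 1), -0.59 to -0.14 for *Ly6d*, -0.86 to -0.32 for *Clu*, -0.45 to -0.04 for *Anxa1*, -0.35 to -0.05 for *Anxa3* and -0.21 to 0.20 for *Il33* (0.20 without wild-type replicate 1, 0.01 without knockout replicate 1). In tumors it ranged from 0.56 to 0.74 for *Ly6a*, 0.35 to 1.05 for *Ly6d*, 0.13 to 0.58 for *Clu*, 0.15 to 0.34 for *Anxa1*, 0.35 to 0.44 for *Anxa3*, 0.05 to 0.17 for *Il33* and -0.15 to 0.30 for *Ankrd1* (-0.08 without control replicate 2, -0.15 without knockout replicate 3). Members with an unadjusted p under 0.05 numbered 0 to 2 in crypts and 2 to 4 in tumors, and members with groups that did not overlap 0 to 2 and 3 to 5; the highest numbers came without knockout replicate 2 in crypts, where 4.87% of all genes tested had such a p and 9.01% were apart and lower, and without control replicate 1 in tumors, where 16.5% had such a p and 19.7% were apart and higher. Quantile normalization and both rescalings to a total left 2 members apart in tumors, where 9.33%, 8.63% and 8.59% of all genes tested were apart and higher.

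List medians with 1 library left out ranged in crypts from -0.31 to -0.09 for the members, -0.36 to -0.14 for YAP, TAZ and TEAD targets, -0.07 to 0.09 for the Hippo genes, -0.04 to 0.08 for annexins, -0.20 to 0.33 for the Ly6 cluster, -0.18 to 0.01 for the IL-33 genes, -0.15 to 0.13 for annexin A1 receptors and partners and -0.35 to 0.07 for immediate early and heat shock genes. In tumors they ranged from 0.15 to 0.44 for the members, 0.09 to 0.34 for other fetal-like genes, 0.12 to 0.26 for YAP, TAZ and TEAD targets, 0.02 to 0.21 for annexins, 0.01 to 0.18 for the IL-33 genes, -0.23 to 0.01 for stem cell markers, -0.17 to 0.15 for interferon-stimulated genes and 0.17 to 0.51 for immediate early and heat shock genes. Quantile normalization gave tumor medians of 0.09 for the members, 0.14 for other fetal-like genes and -0.21 for stem cell markers.

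Leaving out both crypt controls with stomach transcripts, chosen after seeing the data, left 1 control. *Ly6a* was then at 0.02, *Il33* at 0.08, *Clu* at -0.14, *Ly6d* at -0.15, *Anxa1* at -0.23 and *Anxa3* at -0.28. The medians were 0.13 for the Hippo genes, -0.12 for annexins, 0.55 for the Ly6 cluster, 0.06 for the IL-33 genes and 0.19 for stem cell markers.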
